A study of Mus musculus with 6 samples.

Results

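The genes described here are the 4 PDGF ligand genes Pdgfa, Pdgfb, Pdgfc and Pdgfd and the 2 receptor genes Pdgfra and Pdgfrb, 6 of the 53801 genes in the count table, chosen by name. They were picked with their counts in these libraries already known, because ligand genes differed between the groups in opposite directions. Their comparison between groups is therefore given as a description, without a test. RNA was sequenced from PDPN+PDGFRα+ stromal cells sorted from MO5 tumors, which are melanomas grown from B16 cells that carry ovalbumin, in young adult C57Bl/6 mice. Cells positive for CD45 or CD31 had been excluded in the sort. Both groups received diphtheria toxin (DT). In the 3 DTR+ libraries (DTR) the mice carried a bacterial artificial chromosome transgene that expresses the DT receptor (DTR) from the Adam12 promoter, so DT kills only cells in which that transgene is active. The 3 DTR- libraries (Ctrl) came from littermates without the transgene. The paper states that n counts mice unless noted otherwise and that technical replicates from separate experiments were not pooled. Neither the labels nor the methods say whether a library pools several mice, so spreads between libraries may be partly technical.

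PDGFs are dimeric growth factors that act on mesenchymal cells through a pair of receptor tyrosine kinases. PDGF-A and PDGF-C chains act mainly through PDGFRα, PDGF-D mainly through PDGFRβ, and PDGF-B through both. PDGF-A and PDGF-B are cut by furin-type convertases inside the cell, whereas PDGF-C and PDGF-D are secreted with a CUB domain that extracellular proteases such as tPA (Plat) and uPA (Plau) remove. In tumors, PDGF-B from endothelial cells recruits pericytes through PDGFRβ, and PDGFRα marks fibroblasts.

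To compare the ligand genes with opposite differences at the sequence level, the 250 bases upstream of annotated starts were read from RefSeq on build GRCm38.p6. Of the 5 members looked up, 4 had an entry (all but Pdgfb), and sequences are shown for 3 ligand genes. Capitals mark the motifs found on either strand among TATAAA, the CCAAT box, the GC box GGGCGG, the hypoxia response cores ACGTG and GCGTG, and the AP-1 motif TGANTCA. The first sequence lies on the plus strand at chr9:6168236-6168485, the second on the plus strand at chr3:81036166-81036415, and the third, the more upstream of 2 listed starts, on the minus strand at chr5:138994945-138995194.
Pdgfd: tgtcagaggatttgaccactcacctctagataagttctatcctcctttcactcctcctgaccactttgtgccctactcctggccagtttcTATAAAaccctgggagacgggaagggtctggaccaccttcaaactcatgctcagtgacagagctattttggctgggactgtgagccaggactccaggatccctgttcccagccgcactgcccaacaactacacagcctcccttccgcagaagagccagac
Pdgfc: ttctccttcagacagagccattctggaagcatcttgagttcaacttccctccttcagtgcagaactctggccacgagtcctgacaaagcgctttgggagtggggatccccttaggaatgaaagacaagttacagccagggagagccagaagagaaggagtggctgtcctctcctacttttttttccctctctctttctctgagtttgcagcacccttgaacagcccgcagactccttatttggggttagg
Pdgfa: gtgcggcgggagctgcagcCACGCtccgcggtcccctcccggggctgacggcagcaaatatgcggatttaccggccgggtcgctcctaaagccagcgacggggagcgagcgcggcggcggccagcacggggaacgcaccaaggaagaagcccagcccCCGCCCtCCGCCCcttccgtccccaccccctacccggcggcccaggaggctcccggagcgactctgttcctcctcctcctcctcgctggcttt
The Pdgfd window held 1 TATAAA, between 160 and 155 bases upstream of the start, a motif present in 12.4% of 32817 windows of 250 bases. No searched motif was found in the Pdgfc window. The Pdgfa window held GGGCGG at 2 positions, on the minus strand at 93 to 88 and at 86 to 81 bases upstream, and GCGTG at 1 position, in 32.7% and 28.1% of all windows. GC content was 53.6% for Pdgfd, 50.8% for Pdgfc and 54.4% for Pdgfra. It was 72.4% for this Pdgfa window and 66.4% for the other listed start. The window of that other start held GGGCGG on the plus strand at 60 to 55 bases upstream, and no GCGTG. These matches describe letters in a window and not bound sites.

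The libraries held 22339635 to 34271929 reads counted in genes. The smallest number taken as detected, 3 counts, corresponds to 0.0875 to 0.134 CPM, where CPM are counts scaled to a library total of 1000000. Adam12, whose promoter drives the DT receptor, was lower in each DTR library than in any Ctrl library, at a log2 difference of -0.42 ± 0.154 (SE), which did not pass the threshold (adjusted p = 0.602, edgeR quasi-likelihood). The 12 fibroblast marker genes summed to between 5305 and 15205 CPM per library and each had at least 200 reads in every library. The 12 melanoma genes, led by Dct, summed to more in every library, between 16510 and 20136 CPM. RNA of tumor cells was therefore present in both groups at overlapping levels. DTR replicate 3 stood apart with 2682 CPM over 12 genes of adventitial-type fibroblasts, against between 396 and 1018 in the other 5 libraries.

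Across the 6 genes, the 3 DTR values of Pdgfd and of Pdgfc all exceeded the Ctrl values, those of Pdgfa and Pdgfb all lay below them, and the groups overlapped for both receptor genes. Groups did not overlap, with DTR lower, for 6.35% of all 15133 genes tested, and with DTR higher for 7.18%. Because the members were chosen with these values known, nothing is read from their 2 and 2. All 6 genes passed the filter on low counts, Pdgfb only through its Ctrl libraries, since it had under 10 counts in each DTR library. With edgeR's quasi-likelihood test 0 genes of the table had an adjusted p under 0.05 (0% of those tested), 7.92% had an unadjusted p under 0.05, and DESeq2 called 31 genes, or 0.152% of those it tested (0.0835% called higher).

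**Figure D1:**
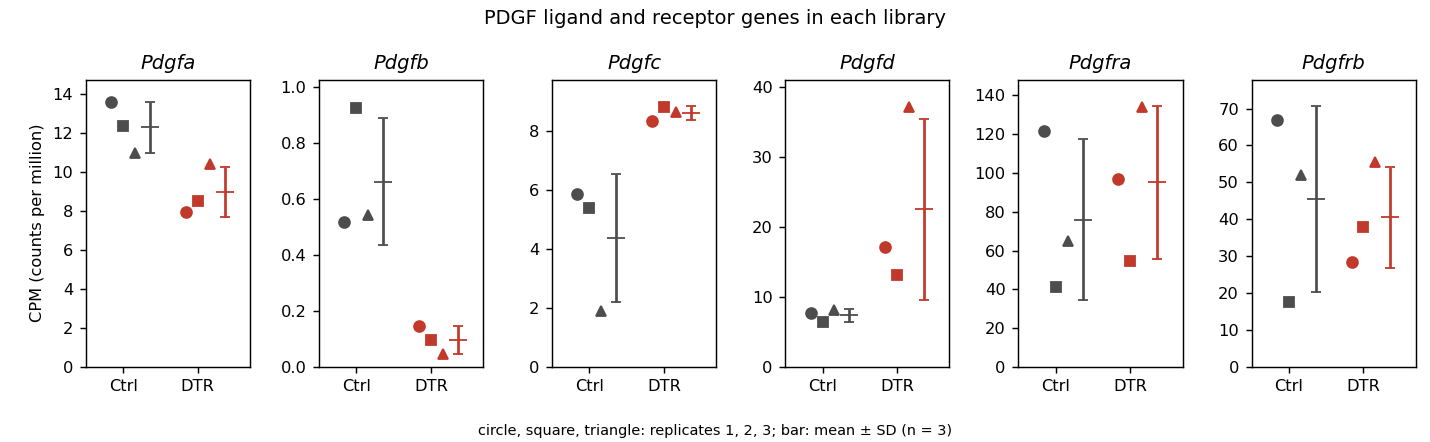
CPM of each PDGF gene in the 3 Ctrl libraries (grey) and the 3 DTR libraries (red), on linear axes from 0 that differ between panels, with mean ± SD (n = 3) beside the points. The groups are separate for the 4 ligand genes and overlap for Pdgfra and Pdgfrb, and DTR replicate 3 holds the highest Pdgfd value, 37.2 CPM.

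Pdgfd (ENSMUSG00000032006), on chromosome 9 of GRCm38 from 6168584 to 6378850, encodes the ligand that acts mainly on PDGFRβ. Its Ctrl libraries were at 7.69, 6.35 and 8.05 CPM, or 193, 158 and 222 reads. Its DTR libraries were at 17.1, 13.2 and 37.2 CPM, or 586, 405 and 830 reads. The Ctrl libraries lay close together, and each DTR library was above them, with replicate 3 more than the other two. Ctrl averaged 7.36 ± 0.897 CPM and DTR 22.5 ± 12.9 CPM (mean ± SD, n = 3 each), a ratio of 3.05. The fitted log2 fold change was 1.58 ± 0.362 (SE), and 1.02 without DTR replicate 3.

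Since the summed level of the fibroblast markers differed among libraries, Pdgfd was also set against fibroblast genes within each library. For every 100000 reads on the 12 fibroblast marker genes there were 56.1, 120 and 142 Pdgfd reads in Ctrl and 150, 221 and 244 in DTR. For every 100 Pdgfra reads there were 6.32, 15.5 and 12.4 in Ctrl and 17.6, 24.1 and 27.8 in DTR. On both scales each DTR library remained above each Ctrl library, although DTR replicate 1 came near to Ctrl replicate 3 on the first. For every 100 Pdgfrb reads the groups overlapped, at 11.5, 35.99 and 15.5 in Ctrl and 60.2, 34.8 and 67.0 in DTR. When all genes were scaled to the fibroblast markers, the median gene moved by -0.42. Pdgfd was then at 0.96 ± 0.677 (SE), 1.37 above that median.

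The adventitial-type genes, which include Pi16, Dpp4, Cd34 and Col14a1, were highest in the library with the most Pdgfd. Their summed level was 844, 396 and 465 CPM in Ctrl and 1018, 482 and 2682 in DTR. All 12 had a log2 fold change above 0, with a median of 1.20, and 0 had an adjusted p under 0.05 in the edgeR test (5 at an unadjusted p under 0.05, all higher). The part of this fibroblast type in the Pdgfd difference was not tested beyond these values. In bulk RNA more cells of a type and more RNA per cell cannot be told apart.

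Pdgfc (ENSMUSG00000028019), on chromosome 3 from 81036416 to 81214040, encodes the other CUB-domain ligand, which acts through PDGFRα. Its Ctrl libraries were at 5.86, 5.39 and 1.89 CPM, from 147, 134 and 52 reads. Its DTR libraries lay within a narrow range, at 8.35, 8.81 and 8.64 CPM, from 286, 271 and 193 reads. Ctrl replicate 3 was far below the other Ctrl libraries, and even the highest Ctrl library was below the lowest DTR library. Ctrl averaged 4.38 ± 2.17 CPM and DTR 8.6 ± 0.237 CPM (mean ± SD, n = 3 each). The log2 fold change was 0.93 ± 0.401 (SE) and was 0.56 without Ctrl replicate 3. Unlike Pdgfd, Pdgfc was not highest in DTR replicate 3.

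Both CUB-domain ligand genes are long, spanning 210 kb (Pdgfd) and 178 kb (Pdgfc), whereas Pdgfa spans 21.4 kb and Pdgfb 19.1 kb. Long genes were slightly higher in DTR in general. The median log2 fold change was -0.07 for 4179 genes under 10 kb, 0.08 for 1633 genes from 100 to 300 kb and 0.19 for 410 longer genes. With an offset for genomic span, the log2 fold change of Pdgfd was 1.38 and that of Pdgfc 0.76. The part of gene length in these differences was not tested beyond these values.

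Pdgfa (ENSMUSG00000025856) lies on chromosome 5 from 138976014 to 138997370 on the minus strand and encodes the classical PDGFRα ligand. In Ctrl it was counted at 13.6, 12.3 and 10.96 CPM, from 341, 307 and 302 reads. In DTR it was counted at 7.97, 8.52 and 10.4 CPM, from 273, 262 and 233 reads. Ctrl replicate 3 and DTR replicate 3 were nearly level, and the groups were otherwise apart. Ctrl averaged 12.3 ± 1.32 CPM and DTR 8.97 ± 1.29 CPM (mean ± SD, n = 3 each), and the log2 fold change was -0.49 ± 0.180 (SE). Leaving out any single library kept it between -0.61 and -0.40. Which cells in the sorted fraction carried Pdgfa was not tested.

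Pdgfb (ENSMUSG00000000489), on chromosome 15 from 79995874 to 80014977 on the minus strand, was the least abundant member. Its reads numbered 13, 23 and 15 in Ctrl and 5, 3 and 1 in DTR. These are 0.518, 0.924 and 0.544 CPM in Ctrl and 0.146, 0.0976 and 0.0448 in DTR, where replicates 2 and 3 were at or under the 3 counts taken as detected. Summed over libraries, 51 reads in Ctrl and 9 in DTR gave a depth-scaled ratio of DTR to Ctrl of 0.157. Its exact 95% binomial interval, from 0.0678 to 0.321, covers counting error only. Pdgfb was chosen with these reads known, so the interval is no test of the groups. The fitted log2 fold change was -2.71 ± 0.660 (SE). With so few reads the size of this difference is uncertain. Every DTR library had fewer Pdgfb reads than every Ctrl library, which restates values known when the gene was chosen.

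PDGF-B is made mainly by endothelial cells, macrophages and platelets, so their markers were set beside it, although the sort gated out CD31+ endothelial and CD45+ hematopoietic cells. Reads of the gated genes were still counted, with 64, 91 and 143 for Pecam1 (CD31) in Ctrl against 276, 168 and 91 in DTR. Ptprc (CD45) had 399, 1186 and 771 reads in Ctrl against 1192, 933 and 834 in DTR, so both overlapped between the groups. Endothelial markers summed to 35.8, 27.9 and 31.1 CPM for Ctrl against 47.9, 35.7 and 104 CPM for DTR, so the ranges overlapped. In DTR replicate 3 most of the sum came from Tek, which encodes an angiopoietin receptor and had 275, 104 and 219 reads in Ctrl and 507, 186 and 1426 in DTR. Plvap, an endothelial diaphragm gene, was lower in each DTR library, with 42, 31 and 32 reads in Ctrl and 4, 28 and 20 in DTR (log2 fold change -1.13 ± 0.698, SE). Vwf, the von Willebrand factor gene, was higher in each DTR library, at 15.1, 14.8 and 12.5 CPM in Ctrl and 19.9, 20.1 and 21.7 CPM in DTR (log2 fold change 0.51 ± 0.140, SE). Of 7 endothelial genes tested, 5 were above 0 and 2 below, with 2 at an unadjusted p under 0.05, both higher, and 0 past the adjusted threshold of edgeR. Of these 12 genes Cldn5 and Emcn never reached 3 reads, and the defining gene Cdh5 had 12, 14 and 39 reads in Ctrl and 19, 8 and 0 in DTR. Macrophage markers, with Adgre1, Csf1r and C1qa as the defining genes, summed to 125 to 204 CPM for Ctrl and to 148 to 158 CPM for DTR. Platelet markers summed to 3.70 to 7.13 CPM for Ctrl and to 4.55 to 5.92 CPM for DTR. Of their defining genes, Gp9 was at 0 in all libraries and Pf4 had 97, 49 and 37 reads in Ctrl and 80, 19 and 7 in DTR. All 3 sums overlapped between the groups. Of 11 macrophage genes tested, 8 had a log2 fold change below 0 and 3 above. Mrc1, the macrophage mannose receptor gene, was lower in each DTR library, at 25.6, 21.4 and 20.9 CPM in Ctrl and 18.03, 17.1 and 11.5 CPM in DTR, with a log2 fold change of -0.57 ± 0.195 (SE) that did not pass the adjusted threshold of edgeR. The part of these cell types in the Pdgfb difference was not tested.

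**Figure D2:**
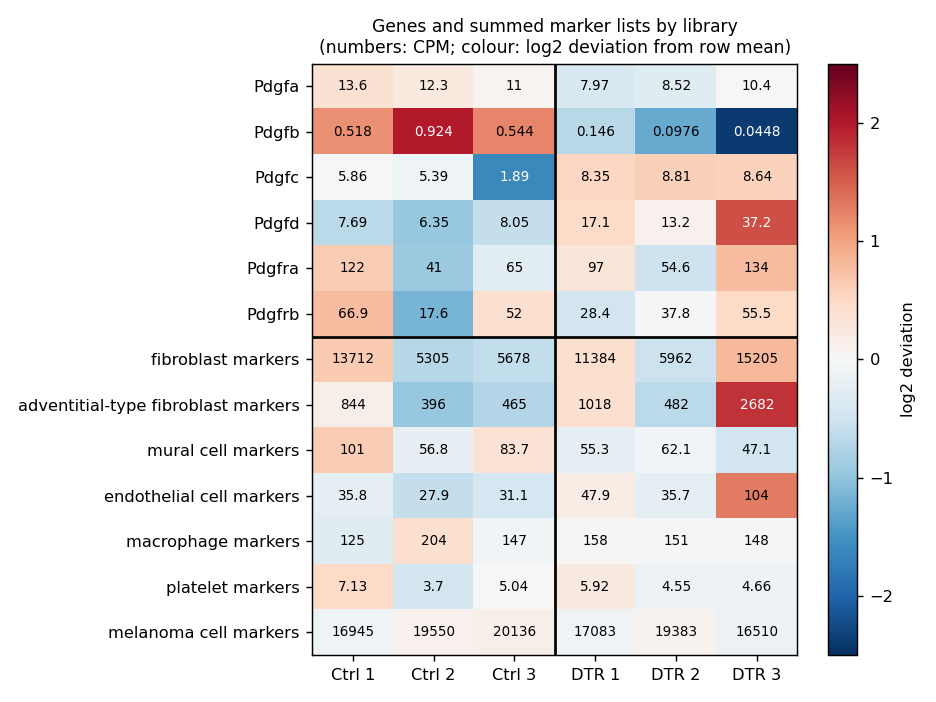
Each cell gives the CPM of a PDGF gene, or the summed CPM of a marker list of 12 genes, in 1 library, and its colour gives the log2 deviation from the row mean over the 6 libraries. Pdgfd (37.2 CPM) and the adventitial-type (2682), fibroblast (15205) and endothelial (104) sums are highest in DTR replicate 3, and all 7 marker sums overlap between the groups.

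In each library both receptor genes had more reads than any ligand gene. Pdgfra (ENSMUSG00000029231), on chromosome 5 from 75152292 to 75198215, encodes PDGFRα, one of the proteins on which the cells were sorted. The Pdgfra level may in part be set by the gate, which was not tested. Its Ctrl libraries were at 122, 41.0 and 65.0 CPM and its DTR libraries at 97.0, 54.6 and 134 CPM. The ranges overlapped almost completely. The log2 fold change was 0.29 ± 0.422 (SE) and it was -0.03 without DTR replicate 3. Pdgfrb (ENSMUSG00000024620), on chromosome 18, encodes PDGFRβ, the receptor of PDGF-D and of pericytes. It was counted at 66.9, 17.6 and 52.0 CPM in Ctrl and at 28.4, 37.8 and 55.5 CPM in DTR. Ctrl replicate 2 held the lowest and Ctrl replicate 1 the highest value of all 6, and the log2 fold change was -0.19 ± 0.434 (SE). Leaving out Ctrl replicate 1 turned it to 0.22, and leaving out DTR replicate 1 to 0.02.

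Pdgfra and Pdgfrb had low values together in Ctrl replicate 2, where the fibroblast markers were also lowest, at 5305 CPM. Within a library there were 1.82, 2.32 and 1.25 Pdgfra reads for each Pdgfrb read in Ctrl and 3.42, 1.44 and 2.41 in DTR, again overlapping. The mural cell markers summed to 101, 56.8 and 83.7 CPM in Ctrl and to 55.3, 62.1 and 47.1 in DTR. Mcam, the most abundant gene of this list, averaged 42.7 CPM in Ctrl and 33.1 CPM in DTR, beside sums averaging 80.6 and 54.9 CPM. Of 8 mural genes tested, 7 had a log2 fold change below 0, with 0 past an adjusted p of 0.05 in the edgeR test and 1 at an unadjusted p under 0.05. This gene was Cspg4, which encodes the pericyte marker NG2. It was counted at 11.99, 5.59 and 8.997 CPM in Ctrl and at 3.03, 4.94 and 5.42 CPM in DTR, so each DTR library was below each Ctrl library on the CPM scale (log2 fold change -1.02 ± 0.334, SE). Of the defining mural genes, Rgs5 had at most 26 reads in a library. The part of mural cells in the Pdgfrb values was not tested.

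To compare levels between genes, CPM were divided by the kilobases of annotated exon of each gene. In Ctrl the order was Pdgfrb, 8.31 ± 4.61 CPM per kilobase (SD, n = 3), Pdgfra at 7.57 ± 4.14, Pdgfa at 3.94 ± 0.422, Pdgfd at 2.34 ± 0.284, Pdgfc at 0.860 ± 0.426 and Pdgfb at 0.159 ± 0.0547. The library ranges of the first 3 genes overlapped from neighbour to neighbour, and those of the last 4 did not. In DTR the order was Pdgfra at 9.49 ± 3.95 CPM per kilobase, Pdgfrb at 7.40 ± 2.51, Pdgfd at 7.13 ± 4.08, Pdgfa at 2.88 ± 0.414, Pdgfc at 1.69 ± 0.0465 and Pdgfb at 0.0231 ± 0.0122. Here Pdgfd overlapped the receptors and lay above Pdgfa in range. The leading ligand transcript per length was thus Pdgfa in Ctrl and Pdgfd in DTR.

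This exchange is independent of how libraries are scaled to each other. Among the 4 ligand genes, per kilobase of exon, Pdgfa made up 54.0%, 54.6% and 53.5% in Ctrl, but 26.5%, 31.5% and 19.9% in DTR. Pdgfd made up 30.2%, 27.8% and 38.9% in Ctrl and 56.2%, 48.2% and 70.0% in DTR. No DTR library overlapped a Ctrl library in either share. Both shares are parts of the same sum, over genes chosen for their opposite differences, so this separation is no test of the groups. The share of Pdgfc overlapped between the groups, at 11.5 ± 5.08% (SD, n = 3) in Ctrl and 15.7 ± 5.08% in DTR. That of Pdgfb was 2.20 ± 0.782% in Ctrl and 0.233 ± 0.153% in DTR. Pdgfc and Pdgfd together, the ligands with a CUB domain, accounted for 43.8% on average in Ctrl and 73.8% in DTR. The 4 ligand genes summed to 24.7 ± 3.12 CPM in Ctrl and 40.1 ± 14.04 CPM in DTR (mean ± SD, n = 3 each), with 56.3 CPM in DTR replicate 3.

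**Figure D3:**
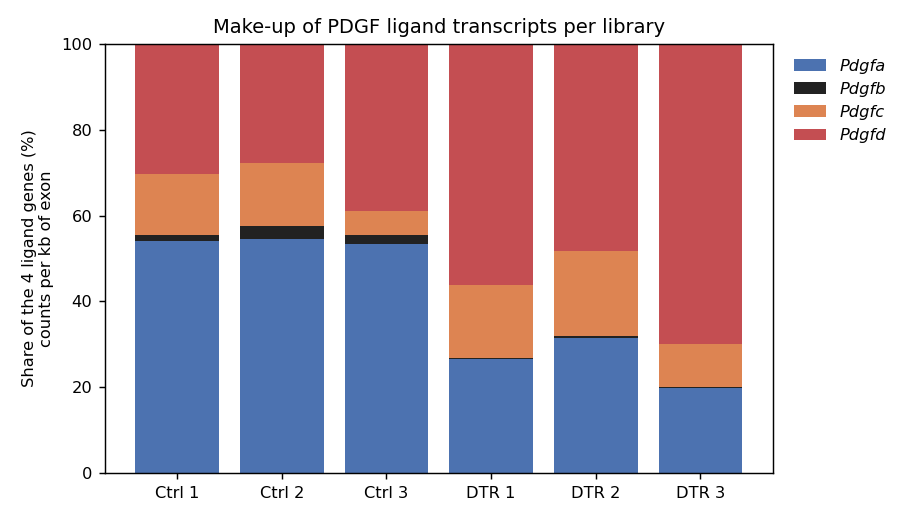
Stacked bars give the share of Pdgfa, Pdgfb, Pdgfc and Pdgfd in their sum, in percent of counts per kilobase of exon, for each library. Pdgfa takes between 53.5% and 54.6% in Ctrl, as against 19.9% to 31.5% in DTR, and Pdgfd between 48.2% and 70.0% in DTR.

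The 2 ligands that act on PDGFRβ, PDGF-D and PDGF-B, differed most. In Ctrl there were 14.8, 6.87 and 14.8 Pdgfd reads for each Pdgfb read. In DTR there were 117 (exact 95% binomial interval 49.9 to 362), 135 (45.9 to 657) and 830 (149 to 32822) per Pdgfb read. The wide DTR intervals, which cover counting error only, follow from the 5, 3 and 1 Pdgfb reads. These ratios describe genes chosen for their opposite differences and are no test of the groups.

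**Figure D4:**
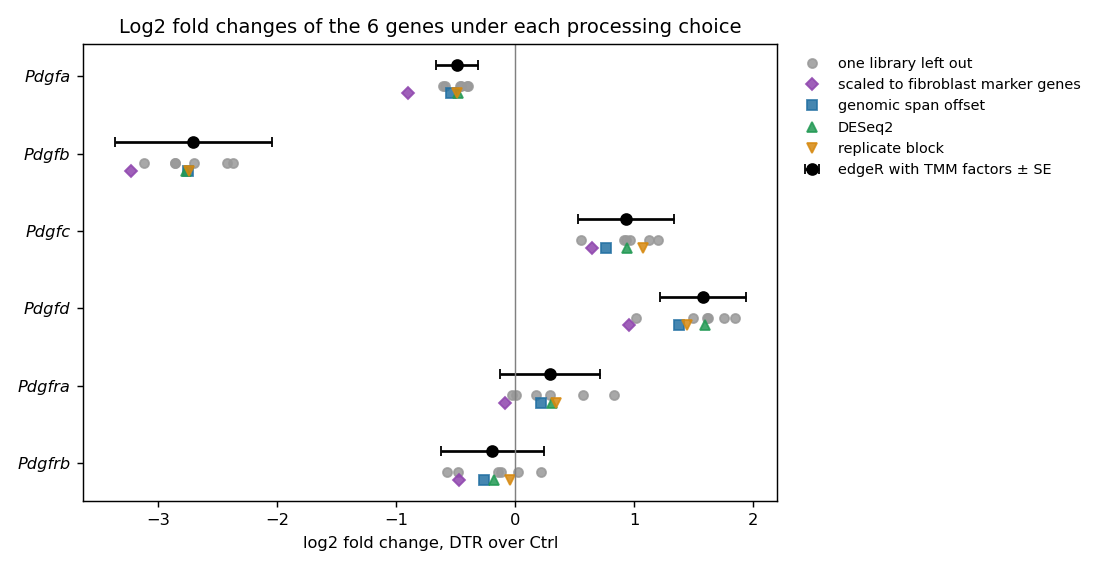
Log2 fold changes of DTR over Ctrl for the 6 genes, with black points for edgeR with TMM factors ± SE and coloured symbols for other processing choices and for fits without 1 library. The 4 ligand genes stay on their side of 0 in all fits shown, whereas Pdgfra (0.29) and Pdgfrb (-0.19) cross it.

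The other genes of the pathway, in 4 lists with 79 genes, were tested in the same edgeR fit. Of 77 genes with enough counts, 0 had an adjusted p under 0.05 (lowest adjusted p = 0.602, edgeR quasi-likelihood), and DESeq2 also called 0. Before adjustment, 7 genes were under 0.05, 4 lower and 3 higher in DTR, which is 9.09% against 7.92% of all genes (4.11% lower and 3.81% higher). Without Ctrl replicate 1 it was 15 of 77 pathway genes, beside 1324 of 15853 genes in all. Without DTR replicate 1 it was 11 of 77, beside 1604 of 15665, and without Ctrl replicate 2 it was 2 of 78, beside 827 of 15871. The count thus moved with single libraries, by more than that of all genes. The median log2 fold change of the 77 genes was 0.05, against 0.00 (-0.0029) for all genes tested. Since 0% of all tested genes passed the adjusted threshold, nothing particular to the pathway is read from these counts.

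Of the ligand-processing proteases and extracellular partners, 12 of 14 genes were tested, with a median log2 fold change of 0.18. The highest value was 1.79 ± 0.732 (SE), for Pcsk6, a furin-type convertase. Pcsk6 had 229, 132 and 123 reads in Ctrl and 421, 167 and 1110 in DTR, so its groups overlapped and DTR replicate 3 was the highest. Plat, which releases active PDGF-C, stood at a log2 fold change of 0.72 ± 0.477 (SE), and Plau, which acts on PDGF-D, one of 0.30 ± 0.379. Plat and Plau were abundant in both groups, with at least 473 and 529 reads in each library. Furin was nearly level, at 0.03 ± 0.128 (SE).

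All 32 genes of receptor-proximal and downstream signalling were tested, and their log2 fold changes stayed within a narrow range, from -0.32 for Stat5a to 0.39 for Fyn, a Src-family kinase, with a median of -0.02. The adaptor and MAP kinase steps were represented by Grb2 at 0.03 and Map2k2 at -0.27. Among 14 brakes on the receptors the values ran from -0.29 for Spry1 to 0.36 for Ptpn12, a tyrosine phosphatase, with a median of 0.08. For 19 genes that PDGF induces in fibroblasts, they ran from -0.53 for Egr3 to 0.89 for Has2, a hyaluronan synthase, with a median of 0.07. In that list 8 genes were below 0 and 11 above, with 1 at an unadjusted p under 0.05 (Nr4a1, -0.29 ± 0.112) in the edgeR test. Genes of this list such as Fos and Egr1 also respond to tissue dissociation.

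**Figure D5:**
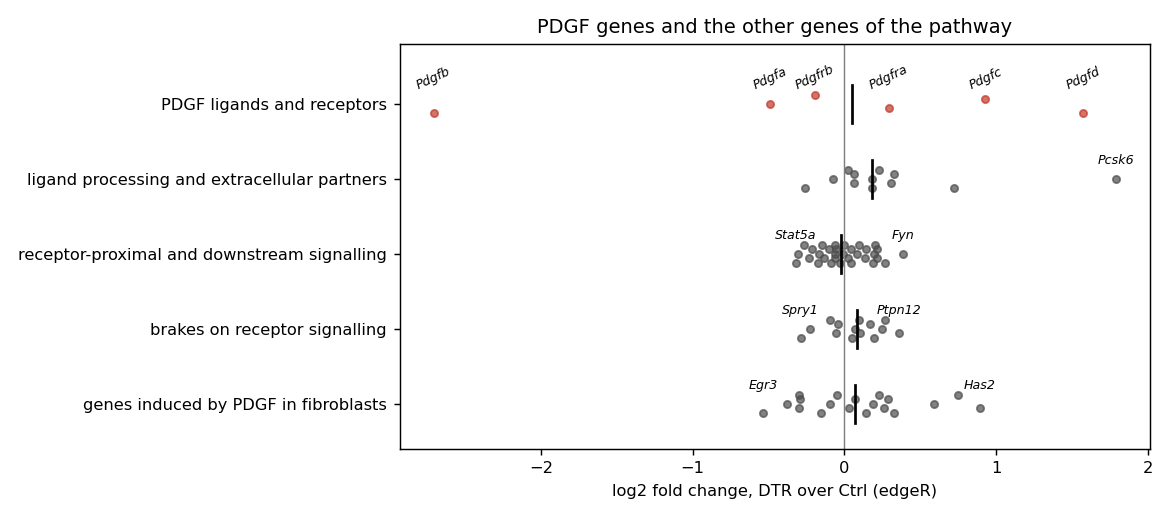
Log2 fold changes of DTR over Ctrl from edgeR for the 6 PDGF genes (red) and for 77 tested genes of 4 pathway lists (grey), with a black bar at the median of each row. The signalling genes lie between -0.32 and 0.39, and the PDGF genes, which were chosen for their differences, between -2.71 and 1.58.

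The genes most like each member over the 6 libraries were found by the root mean square difference of centred log2 CPM, among 12982 other genes with a mean of at least 1 CPM. For Pdgfd these were the homeobox gene Emx2 (difference 0.151), Card10 (0.197) and Ldb2 (0.248). For Pdgfc they were Sertad4 (0.232), Rhpn2 (0.292) and the polarity gene Pard3b (0.310). For Pdgfa they were Tbc1d2 (0.0608), Cryzl2 (0.0794) and Notch1 (0.0854). For Pdgfb the nearest genes were less alike. They were Gm17322 (0.374), Tgfa (0.546), which encodes an EGF receptor ligand, and Car9 (0.577), a carbonic anhydrase induced by hypoxia. Pdgfb itself averaged 0.662 CPM in Ctrl and 0.0961 CPM in DTR, so genes at its own level were outside the search. Pdgfra was most like Asap3 (0.116), Ehd2 (0.116) and Cnrip1 (0.118), and Pdgfrb was most like Pld2 (0.215), the collagen VI gene Col6a2 (0.217) and Igfbp7 (0.223). Between members the closest pair was Pdgfra with Pdgfrb (0.485) and the farthest Pdgfb with Pdgfd (1.94).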

How the data were processed

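The authors trimmed reads with cutadapt 3.4, aligned them to GRCm38 with STAR 2.7.3a and counted them per gene by strand with featureCounts 2.0.1. These deposited raw counts of 6 libraries, 3 per group, are the only values used. The 6 normalised columns and the authors' own fold changes and p-values in the table were not used. Libraries held 22339635 to 34271929 counts. Genes were filtered with filterByExpr (minimum count 10, minimum total 15), which left 15133, scaled with TMM factors and compared with edgeR 4.0.16 (quasi-likelihood F test, two-sided), with Benjamini-Hochberg adjusted p-values read at 0.05. Each standard error was obtained by dividing the log2 fold change by the root of its F statistic. Coordinates, spans and exon lengths came from GENCODE M21 (GRCm38), which matched 53706 of 53801 genes, and promoters from RefSeq. No 50-base word was shared among the transcripts of the 6 members, a count of 0. Members, gene lists and motifs were chosen with earlier results of these data known. Named genes are the members, the extremes of each pathway list, genes of a list past the threshold, marker genes set beside a result, Adam12, and the 3 genes most like each member (prior count 2). A single gene covered by this rule is not reported here. Plat, Plau, Furin, Grb2, Map2k2, Nr4a1, Tek, Plvap, Vwf, Mrc1, Mcam and Ptprc were named after their values were seen. Steps were tested on simulated data. R 4.3.3, DESeq2 1.42.0, Python 3.11.15, SciPy 1.17.1 and matplotlib 3.10.9 were used.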

Additional observations from a re-analysis of the deposited data

How the results depend on the processing

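Log2 fold changes of the 6 genes were computed under 14 alternatives (13 for Pdgfb, which a minimum of 10 counts in every library left out), and the 4 ligand genes kept their direction in all of them. RLE size factors, library size alone, both filters, DESeq2, the span offset and the replicate block left all 6 values within the spread of replicates, as far as each could be fitted. Scaling to the fibroblast markers moved the median gene by -0.42. Pdgfa was then at -0.90 ± 0.677, Pdgfd at 0.96 ± 0.677 and Pdgfra at -0.083 ± 0.687 (SE). With each library left out in turn Pdgfra ran from -0.026 to 0.83 and Pdgfrb from -0.57 to 0.22. The number of genes called was 31 with DESeq2, 2 with fibroblast scaling and between 0 and 2 with a library left out, where 2 were called without Ctrl replicate 1. The number of pathway genes called was 0 in all 14. With the replicate number as a block 0 genes were called. Correlations of deviations between same-numbered libraries were 0.114, 0.132 and -0.042. The best-matching DTR replicate was 1 for Ctrl replicate 1, and 2 for Ctrl replicates 2 and 3. With 3 libraries per group these values do not settle whether the numbers pair the samples. The share of Pdgfc and Pdgfd together was 36.7% in Ctrl and 67.4% in DTR with the length of the longest transcript, and 47.4% in Ctrl with no length. Without DTR replicate 3 the mean Pdgfd to Pdgfb ratio in DTR was 126. Pdgfb rested on the fewest reads of the 6 genes.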

Other observations

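Antisense genes overlap 4 of the members by annotation. The antisense gene of Pdgfa, 6330403L08Rik, shares 2315 bases of its span and had 52, 29 and 22 reads in Ctrl and 25, 4 and 33 in DTR. The antisense gene Gm41361 at Pdgfb had at most 3 reads in a library. Those at Pdgfc (Gm16000) and Pdgfra (Gm42802) had 0 and at most 2 reads. The authors counted reads by strand, so these reads are separate from those of the members. The gene Ddi1, on the opposite strand within Pdgfd, had 0 reads in all 6 libraries.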
